A study of Homo sapiens with 4 samples.

Results

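Serum amyloid A and the interleukin-6 (IL-6) family are described here through 10 genes, of the 58219 genes in the table, in human GBM8401 glioma cells. They are the acute phase genes SAA1 and SAA2, the cytokine genes IL6, IL11 and LIF, the receptor genes IL6ST, OSMR and LIFR, and the signalling genes STAT3 and SOCS3, found by matching the table's Ensembl IDs to GENCODE 29 symbols. They were picked with the comparison of the 2 groups already known, so their values and fold changes are a description and carry no p-value. The TMZ-resistant group was grown from GBM8401 in 200 µM temozolomide (TMZ), an alkylating drug used against glioblastoma, over 140 days, and is set against the parental GBM8401 line with no TMZ named in its labels. Both were kept in RPMI1640 with fetal bovine serum. Each group held 2 libraries of total RNA, called biological replicates, and since the labels name 1 resistant line, p-values measure the spread between these cultures and not between separately raised resistant lines.

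Serum amyloid A proteins are small acute phase apolipoproteins that the liver secretes during inflammation, and many other cells make them when stimulated. Cytokines of the IL-6 family signal through gp130, the shared receptor subunit encoded by IL6ST, which pairs with a ligand-specific chain such as LIFR or OSMR. The bound receptor activates Janus kinases (JAKs), which phosphorylate the transcription factor STAT3. STAT3 in turn induces SOCS3, which binds gp130 and JAKs and shuts the signal off.

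Depth was similar across the libraries, at 30759939 and 28524510 fragments in TMZ-resistant cells and 30475217 and 27019137 in parental cells. A value of 10 in at least 2 libraries was required for testing, which 16132 genes met, the 10 genes among them. Glioma markers were mixed: VIM and CD44 were abundant, whereas GFAP, S100B and AQP4, which define astrocytes, had values of at most 4.25 in every library. The glioma and glial markers summed to between 70251 and 77935 in resistant and between 107027 and 112004 in parental libraries. Of the 6 tested 1 rose (SLC1A3) and 3 fell (NES, VIM and CD44), with a median log2 fold change of −0.40. SLC1A3 had a log2 fold change of 0.48 (limma, Benjamini-Hochberg adjusted p = 0.00370). Its call was lost in limma without trend and robust moderation (adjusted p = 0.0562). SOX2, like GFAP, S100B and AQP4, did not pass the filter. Of 8 hepatocyte markers only CYP2E1 passed the filter. It rose 2.35-fold, with 29.4 and 22.1 in resistant and 12.2 and 8.60 in parental libraries (limma, Benjamini-Hochberg adjusted p = 0.0345), a call lost without resistant replicate 1 (adjusted p = 0.233), resistant replicate 2 (0.0920) or parental replicate 2 (0.0988). ALB had values of 3.01 and 5.94 in resistant and 4.88 and 4.78 in parental libraries. Epithelial markers summed to between 35495 and 37123 in resistant and between 18985 and 20773 in parental libraries, with 2 of 7 rising (KRT8 and KRT18), and endothelial markers to between 893 and 1008 in resistant and between 1435 and 1638 in parental libraries, with 3 of 6 falling. Their part in the results below was not tested. In bulk RNA, a change in the share of cells that make a transcript and a change in RNA per cell cannot be told apart.

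SAA1 and SAA2 lie on chromosome 11 and encode close copies of one protein, so how far their fragments can be separated bears on every value below. The longest open reading frame of each GENCODE 29 transcript was taken. The frame most frequent in SAA1, in 3 of 4 transcripts, was 369 bases long. It was compared with the most frequent SAA2 frame of that same length, held by 3 of 6 transcripts. The frames differed at 11 positions (97.0% identity). Their stretch from base 230 to base 369, which holds 10 of the differences, is shown because capitals, which mark the differing bases, are the places where a coding fragment can be assigned.
SAA1: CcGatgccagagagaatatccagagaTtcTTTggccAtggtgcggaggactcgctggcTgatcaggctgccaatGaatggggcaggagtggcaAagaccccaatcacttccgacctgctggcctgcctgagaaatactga
SAA2: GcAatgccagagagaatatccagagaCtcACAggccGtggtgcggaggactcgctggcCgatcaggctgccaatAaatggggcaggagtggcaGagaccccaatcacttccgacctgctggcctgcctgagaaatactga
The differences crowd into this last stretch of 140 bases, and the longest run without one, farther upstream, was 186 bases.

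SAA1 (GRCh38, chromosome 11, 18266174 to 18269977, plus strand) had deposited values of 1735 and 1846 in TMZ-resistant libraries, against 151 and 194 in parental libraries. A deposited value is the number of fragments on a gene times a scaling factor of the library. The means were 1791 ± 78.7 and 173 ± 30.2 (SD, n = 2 each), 10.4-fold higher in resistant cells, with a log2 fold change of 3.38 ± 0.14 (SE). The groups lay far apart, and each resistant library exceeded the higher parental one several times over.

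SAA2 (chromosome 11, 18239223 to 18248643, minus strand) had values of 1023 and 1042 in TMZ-resistant libraries, against 46.8 and 56.8 in parental libraries. Its means of 1032 ± 13.6 and 51.8 ± 7.04 (SD, n = 2 each) gave a log2 fold change of 4.30 ± 0.15 (SE), 19.7-fold higher in resistant cells and the 7th highest of the 16132 log2 fold changes. The fold was thus larger for SAA2 than for SAA1. Per kb of exon, SAA1 exceeded SAA2 by 4.75 and 4.96 times in resistant libraries and by 9.04 and 9.57 times in parental libraries. This ratio is taken within a library and does not depend on scaling between libraries.

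How fragments that match more than 1 of these genes were assigned is not given in the sources used here, and the values do not show where fragments from the identical run went. Divided by the value of 1 fragment, SAA1 came to whole numbers in every library, 2304 and 2174 in resistant and 186 and 203 in parental ones, within 0.006 of a fragment. SAA2 did not, at 1358.12 and 1226.88 in resistant and 57.53 and 59.37 in parental libraries. The read-through gene SAA2-SAA4, which shares the strand and exons of SAA2, and SAA4, a constitutively expressed relative, also held fractions. SAA2-SAA4 had values of 23.7 and 21.9 in resistant and 3.44 and 4.43 in parental libraries. It met the filter through its resistant libraries alone and had a log2 fold change of 2.28 ± 0.42 (SE). SAA4 had 8.55 and 2.81 in resistant and 1.01 and 0 in parental libraries, too low to be tested. The pseudogene SAA3P was listed at 0 in all libraries. Summed over these 5 genes, so that division among them drops out, the locus had 2790 and 2913 in resistant and 202.6 and 255.3 in parental libraries, a 12.5-fold ratio of the means. SAA1 and SAA2 made up at least 97.8% of that sum in every library.

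The genes beside the SAA pair were taken by position, and differences were called at a Benjamini-Hochberg adjusted p under 0.05 in a limma fit over all 16132 genes. HPS5, a gene of lysosome-related organelle biogenesis that lies 8.7 kb beyond SAA1, rose 2.34-fold, with 2130 ± 3.68 in resistant and 910 ± 0.074 in parental cells (SD, n = 2 each; limma, adjusted p = 5.80e-05). SAAL1, 133.1 kb on the other side, fell by 0.36 on the log2 scale (adjusted p = 0.0148), a call lost without either resistant library (adjusted p = 0.0807 without replicate 1 and 0.106 without replicate 2). Among the 39 other tested coding genes within 5 Mb of SAA1, SAA2-SAA4 included and SAA2 left out, the median log2 fold change was −0.12. Of these, 15.4% were called higher and 28.2% lower. The higher values at SAA1, SAA2 and HPS5 were thus not matched by most genes of the wider region.

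**Figure D1:**
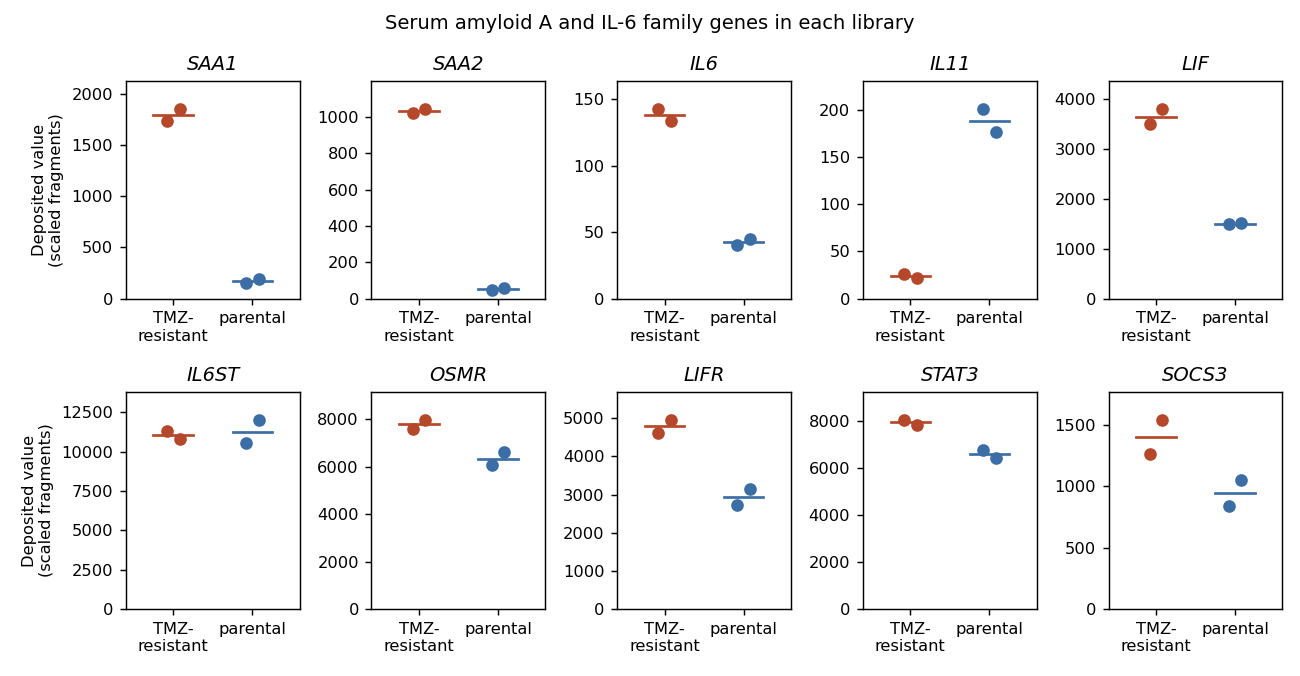
Deposited value (scaled fragments, linear axis from 0) of each of the 10 genes in the 2 TMZ-resistant and the 2 parental libraries, points for libraries and lines for group means. SAA1 and SAA2 stand 10.4-fold and 19.7-fold higher in resistant cells, IL11 is lower there, and only for IL6ST do the groups overlap.

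The 3 cytokines moved in both directions. IL6 (chromosome 7, 22725884 to 22732002, plus strand), the founding member of the family, had values of 142 and 133 in TMZ-resistant libraries, against 40.7 and 44.9 in parental libraries. These rest on 189 and 157 fragments in resistant and 50 and 47 in parental libraries. The means of 138 ± 6.36 and 42.8 ± 3.01 (SD, n = 2 each) gave 3.17-fold higher values in resistant cells, a log2 fold change of 1.67 ± 0.21 (SE). IL6 is overlapped on the other strand by STEAP1B, which went the other way and fell by 1.43 on the log2 scale (limma, adjusted p = 0.00170).

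LIF (chromosome 22, 30240447 to 30246851, minus strand), leukemia inhibitory factor, was the most abundant of these cytokines. Its values were 3491 and 3790 in TMZ-resistant libraries, against 1498 and 1507 in parental libraries, without overlap. The means of 3641 ± 212 and 1502 ± 6.47 (SD, n = 2 each) gave a log2 fold change of 1.28 ± 0.08 (SE), 2.42-fold higher. The antisense gene AC004264.1 at its start rose by 1.56 on the log2 scale (limma, adjusted p = 0.00631), at far lower values of 55.7 and 58.6 in resistant and 14.6 and 23.9 in parental libraries. Since the strand setting of the counting is not given in the sources used here, fragments of the 2 strands cannot be told apart.

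IL11 (chromosome 19, 55364389 to 55370463, minus strand), a gp130 cytokine known from fibrosis and from bone and platelet formation, ran against the other 2. It had values of 25.6 and 22.1 in TMZ-resistant libraries, against 200.1 and 176 in parental libraries. The means of 23.8 ± 2.49 and 188 ± 17.1 (SD, n = 2 each) gave a log2 fold change of −2.93 ± 0.22 (SE), 7.61-fold lower in resistant cells. The resistant values rest on 34 and 26 fragments and the parental ones on 246 and 184. The ratio of the pooled fragments, resistant over parental and corrected for scaling, was 0.127 with an exact binomial 95% interval of 0.0951 to 0.166, which covers counting error only. Per kb of exon, IL6 exceeded IL11 by 7.18 and 7.80 times in resistant libraries but was 0.262 and 0.330 of it in parental libraries, so their order was opposite in the groups. Among the 153 tested coding genes within 5 Mb of IL11, the median log2 fold change was 0.26.

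The upstream sequences of IL6 and IL11 are shown because these cytokines differed between the groups in opposite directions. Both come from RefSeq's promoter table (GRCh38.p14), in which 7 of the 10 genes had an entry. SAA1, SAA2 and LIF had none. The 250 bases before each start were searched on both strands for a kappa B motif (GGGA and TTTCC with any 1 base between them), a C/EBP motif (TTGCNNAA), an AP-1 motif (TGANTCA) and a STAT motif (TTCNNNGAA). Capitals mark the matches. The IL6 stretch is chr7:22726950-22727146, plus strand, from −250 to −54. Its last 53 bases are not printed because an annotated IL6 exon covers them. The IL11 stretch is chr19:55370464-55370713, minus strand, from −250 to −1.
IL6: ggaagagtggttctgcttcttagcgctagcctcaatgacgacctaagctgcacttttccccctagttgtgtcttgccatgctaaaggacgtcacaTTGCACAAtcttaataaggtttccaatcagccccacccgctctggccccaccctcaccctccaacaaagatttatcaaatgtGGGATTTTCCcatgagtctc
IL11: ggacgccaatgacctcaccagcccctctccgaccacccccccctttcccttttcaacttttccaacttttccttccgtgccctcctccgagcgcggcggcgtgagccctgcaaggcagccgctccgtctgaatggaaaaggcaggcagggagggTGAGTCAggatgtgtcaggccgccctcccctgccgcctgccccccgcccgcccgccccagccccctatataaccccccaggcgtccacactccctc
IL6 held 1 kappa B match at −73 to −64 and 1 C/EBP match at −155 to −148, and IL11 held 1 AP-1 match at −96 to −90. Over all 35116 promoters in the table, 0.527% held the kappa B motif, 9.05% the C/EBP motif, 6.57% the AP-1 motif and 6.57% the STAT motif. The STAT motif occurred at 2 of the 3 LIFR starts and the C/EBP motif at 1 LIFR start and at OSMR. A match of letters is no evidence of binding, and the motifs do not overlap one another in these windows.

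The receptor chains differed in how far they changed. LIFR (chromosome 5, 38474963 to 38608354, minus strand), the chain that binds LIF, had values of 4611 and 4943 in TMZ-resistant libraries, against 2722 and 3142 in parental libraries. The means of 4777 ± 235 and 2932 ± 297 (SD, n = 2 each) gave a log2 fold change of 0.71 ± 0.09 (SE), 1.63-fold higher. Ligand and receptor of the LIF pair were thus both higher. The antisense gene LIFR-AS1, which spans the start of LIFR, rose by 1.37 on the log2 scale (limma, adjusted p = 0.0119; 0.0661 without resistant replicate 1 and 0.0668 without resistant replicate 2), with values of 48.2 and 48.4 in resistant and 22.8 and 14.3 in parental libraries.

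OSMR (chromosome 5, 38845858 to 38945596, plus strand), the oncostatin M receptor chain, had values of 7609 and 7964 in TMZ-resistant libraries, against 6072 and 6613 in parental libraries, with means of 7786 ± 251 and 6343 ± 383 (SD, n = 2 each) and a log2 fold change of 0.30 ± 0.08 (SE), 1.23-fold higher. The groups did not overlap. IL6ST (chromosome 5, 55935095 to 55994993, minus strand), the gp130 subunit, had 11271 and 10776 in resistant and 10522 and 11987 in parental libraries. Both resistant values lay between the parental ones, and the log2 fold change was −0.03 ± 0.08 (SE). OSMR overlaps RICTOR on the other strand, which had 2773 and 2566 in resistant and 2025 and 2514 in parental libraries. OSM, the ligand of OSMR, had values of 3.77 and 4.25 in resistant and 3.25 and 1.91 in parental libraries, under the filter.

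STAT3 (chromosome 17, 42313324 to 42388568, minus strand) had values of 8051 and 7857 in TMZ-resistant libraries, against 6766 and 6437 in parental libraries. The means of 7954 ± 137 and 6602 ± 232 (SD, n = 2 each) gave a log2 fold change of 0.27 ± 0.07 (SE), 1.21-fold higher. SOCS3 (chromosome 17, 78356778 to 78360077, minus strand) had 1263 and 1538 in resistant and 840 and 1054 in parental libraries, with means of 1400 ± 195 and 947 ± 151 (SD, n = 2 each), 1.48-fold higher, or 0.57 ± 0.14 (SE) as a log2 fold change. The SOCS3 groups did not overlap, but the 2 libraries of either group lay farther apart than the lower resistant library lay above the higher parental one. RNA alone was measured, so STAT3 phosphorylation was not measured.

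In the fit across all genes, 8 of the 10 genes were called higher and 1, IL11, lower, where 37.1% of all 16132 genes tested were called in either direction, 16.2% higher and 20.9% lower (2621 and 3370 genes; 3665 and 2773 when scaled to library totals). In 9 of the 10 the groups did not overlap, as in 68.6% of all genes (32.2% higher and 36.4% lower). The 10 genes were chosen on this comparison, so nothing is read from these shares. For OSMR, STAT3 and SOCS3, the smallest of the called differences, the call was lost without some single libraries: resistant replicate 2 for all 3, resistant replicate 1 and parental replicate 2 for STAT3, and parental replicate 1 for OSMR. All 3 calls were also lost in limma without trend and robust moderation.

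Levels can be set against each other only per length, here as the deposited value per kb of exon in GENCODE 29 with each library scaled to a total of 1000000. In TMZ-resistant cells the order was SAA1 at 94.9 ± 1.17, IL6ST at 50.1 ± 3.18, OSMR at 45.8 ± 0.025, LIF at 38.7 ± 1.02, STAT3 at 38.1 ± 1.87, SOCS3 at 21.6 ± 2.32, SAA2 at 19.6 ± 0.36, LIFR at 17.0 ± 0.30, IL6 at 2.81 ± 0.22 and IL11 at 0.378 ± 0.051 (SD, n = 2 each). LIF and STAT3 overlapped between libraries, and the other neighbours in that order did not. In parental cells it was IL6ST at 47.8 ± 3.02, OSMR at 34.9 ± 1.09, STAT3 at 29.6 ± 1.90, LIF at 14.96 ± 0.37, SOCS3 at 13.7 ± 1.78, LIFR at 9.75 ± 0.70, SAA1 at 8.55 ± 1.252, IL11 at 2.79 ± 0.33, SAA2 at 0.917 ± 0.098 and IL6 at 0.817 ± 0.034. There LIF overlapped SOCS3, and LIFR overlapped SAA1. SAA1 was first of the 10 in resistant cells and 7th in parental cells. It stood at the 98.4th percentile of all genes tested in resistant cells, against the 67.8th in parental cells. The exons of SAA2 add up to 2227 bases over all its transcripts, against 796 for SAA1, which lowers its level per kb.

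**Figure D2:**
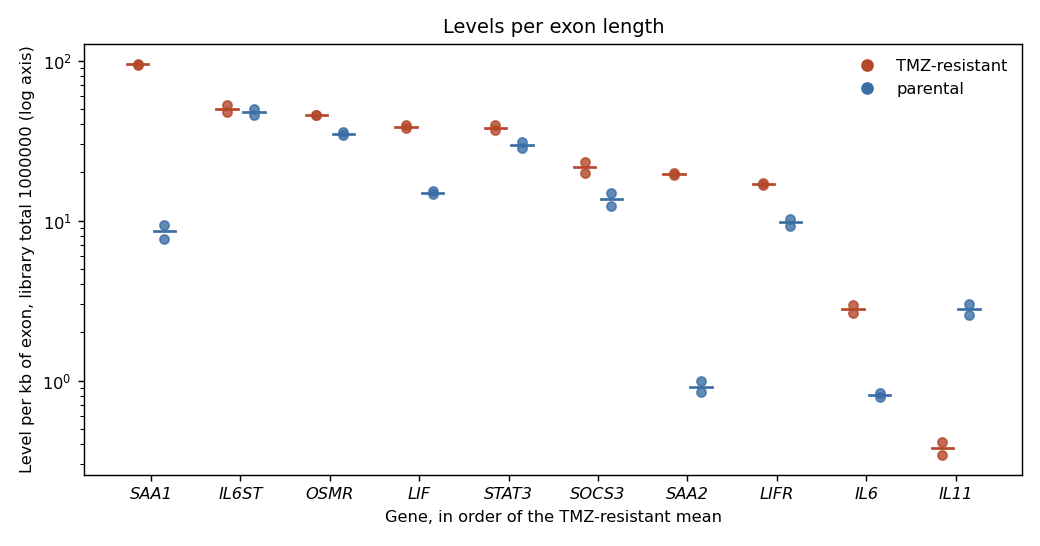
Level per kb of exon with each library scaled to a total of 1000000 (log axis) of the 10 genes, ordered by their TMZ-resistant mean, with points for the 2 libraries of each group and lines for means. SAA1 lies at 94.9 in resistant and 8.55 in parental cells, while IL6ST lies at 50.1 and 47.8.

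Around these 10 genes, 145 other genes of the pathway were described from lists written for their known roles. Of these 119 passed the filter, 31 rose and 21 fell (limma, adjusted p under 0.05; 36 and 15 when scaled to library totals), which is 43.7% called, against 37.1% of all genes. Their median log2 fold change was 0.07, against −0.02 over all genes. The counts of each list below stand beside 16.2% of all genes called higher and 20.9% lower.

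Among the other IL-6 family cytokines, 4 of 8 were tested, of which 2 rose and 1 fell, with a median log2 fold change of 0.05. EBI3, the beta subunit that makes up IL-27 and IL-35, rose 3.82-fold to 160 and 199.6 in resistant libraries, against 38.2 and 55.5 in parental libraries (adjusted p = 6.84e-04). IL27, its partner in IL-27, was listed at 0 in all libraries. CTF1, cardiotrophin 1, a ligand of LIFR and gp130, rose 2.09-fold (85.1 and 73.9 in resistant libraries, against 40.7 and 34.4 in parental libraries; adjusted p = 0.00999), a call lost without resistant replicate 1 (adjusted p = 0.0892). CLCF1, which signals through the ciliary neurotrophic factor receptor CNTFR, fell by 1.46 on the log2 scale to 44.4 and 45.9 in resistant libraries, against 126.1 and 126.2 in parental libraries (adjusted p = 0.00108). It overlaps RAD9A on the other strand, with a log2 fold change of −0.48 (adjusted p = 0.0418; 0.218 without resistant replicate 1, 0.0970 without resistant replicate 2 and 0.175 without parental replicate 2). CNTFR itself had values of at most 1.91.

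Of 7 other receptor and shedding genes, 6 were tested, 2 rose and 1 fell, with a median log2 fold change of 0.02. IL6R, the chain that binds IL-6, rose 1.55-fold to 685 and 680.3 in resistant libraries, against 417 and 461 in parental libraries (adjusted p = 0.00258), so IL6 and its receptor were both higher. IL11RA, the chain for IL-11, had 129 and 167 in resistant and 151 and 185 in parental libraries, with overlap and a log2 fold change of −0.19 (95% interval −0.63 to 0.26; adjusted p = 0.499). IL31RA, a gp130-like chain that pairs with OSMR, fell by 2.33 on the log2 scale to 14.3 and 14.4 in resistant libraries, against 72.4 and 80.3 in parental libraries (adjusted p = 5.24e-04). It lies 12.2 kb from IL6ST, whose values overlapped between groups.

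None of JAK1, JAK2 and TYK2, the kinases that gp130 receptors use, passed the test. JAK1 had a log2 fold change of 0.12 (95% interval −0.04 to 0.28; limma, adjusted p = 0.230; 0.0319 when scaled to library totals), JAK2 of −0.31 (−0.58 to −0.04; adjusted p = 0.0715) and TYK2 of −0.05 (−0.33 to 0.24; adjusted p = 0.798). JAK2 passed without parental replicate 1 (adjusted p = 0.0236). Of the 9 tested kinases and other STATs 2 rose and 0 fell, with a median of 0.09. Among them STAT2, which carries interferon signals, rose 1.95-fold (2447 ± 109 in resistant cells, against 1261 ± 165 in parental cells; SD, n = 2 each; adjusted p = 3.82e-04). Its fold was larger than that of STAT3, a difference that was not tested.

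Of 14 tested negative regulators 2 rose and 0 fell, with a median log2 fold change of −0.03 and a share called of 14.3%. SOCS7 rose 1.78-fold (adjusted p = 0.00730) and PIAS3, the inhibitor of STAT3 DNA binding, 1.29-fold (adjusted p = 0.0110). Both calls were lost without resistant replicate 2 (adjusted p = 0.0711 and 0.111). PIAS3 overlaps NUDT17 on the other strand, which also rose. SOCS1 had values of 12.8 and 7.64 in resistant and 5.69 and 5.74 in parental libraries and was not tested.

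The branch from gp130 to the MAPK and PI3K pathways held more falling than rising genes, with 1 of 13 rising, 6 falling and a median log2 fold change of −0.20. HRAS fell by 1.35 on the log2 scale (38.4 and 35.7 in resistant libraries, against 123 and 74.6 in parental libraries; adjusted p = 0.00713), and NRAS by 0.45 (adjusted p = 0.00358), a call lost without trend and robust moderation (adjusted p = 0.0530). The adaptor gene SHC1 was the 1 that rose, 1.49-fold (adjusted p = 0.00138). PTPN11, the phosphatase SHP2 that docks on gp130, had a log2 fold change of −0.20 (95% interval −0.38 to −0.03; adjusted p = 0.0677) and passed without parental replicate 1 (adjusted p = 0.0440).

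Of 26 tested genes known as STAT3 targets, 10 rose, 3 fell and 13 did not pass, with a median of 0.19. This is 50.0% called, against 37.1% of all genes tested (16.2% higher and 20.9% lower). The immediate early genes JUNB and FOS rose 2.07-fold and 2.04-fold (adjusted p = 2.68e-04 and 0.00388), ZFP36 rose 1.85-fold and BCL2L1, which encodes the survival protein BCL-XL, 1.35-fold. CD274, which encodes the immune checkpoint ligand PD-L1, fell by 1.42 on the log2 scale to 841 and 883 in resistant libraries, against 2413 and 2200 in parental libraries (adjusted p = 4.68e-05). CCND1 and BIRC5, a cyclin and a mitotic survival gene, fell by 0.68 and 0.52. PIM1, MCL1 and TIMP1, also known STAT3 targets, had log2 fold changes of −0.14, −0.20 and −0.09 and did not pass (adjusted p = 0.580, 0.0507 and 0.487). PIM1 passed without parental replicate 1 (adjusted p = 0.0212), and MCL1 with a stricter filter on low values (adjusted p = 0.0469). Most of these genes answer to several other pathways as well.

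**Figure D3:**
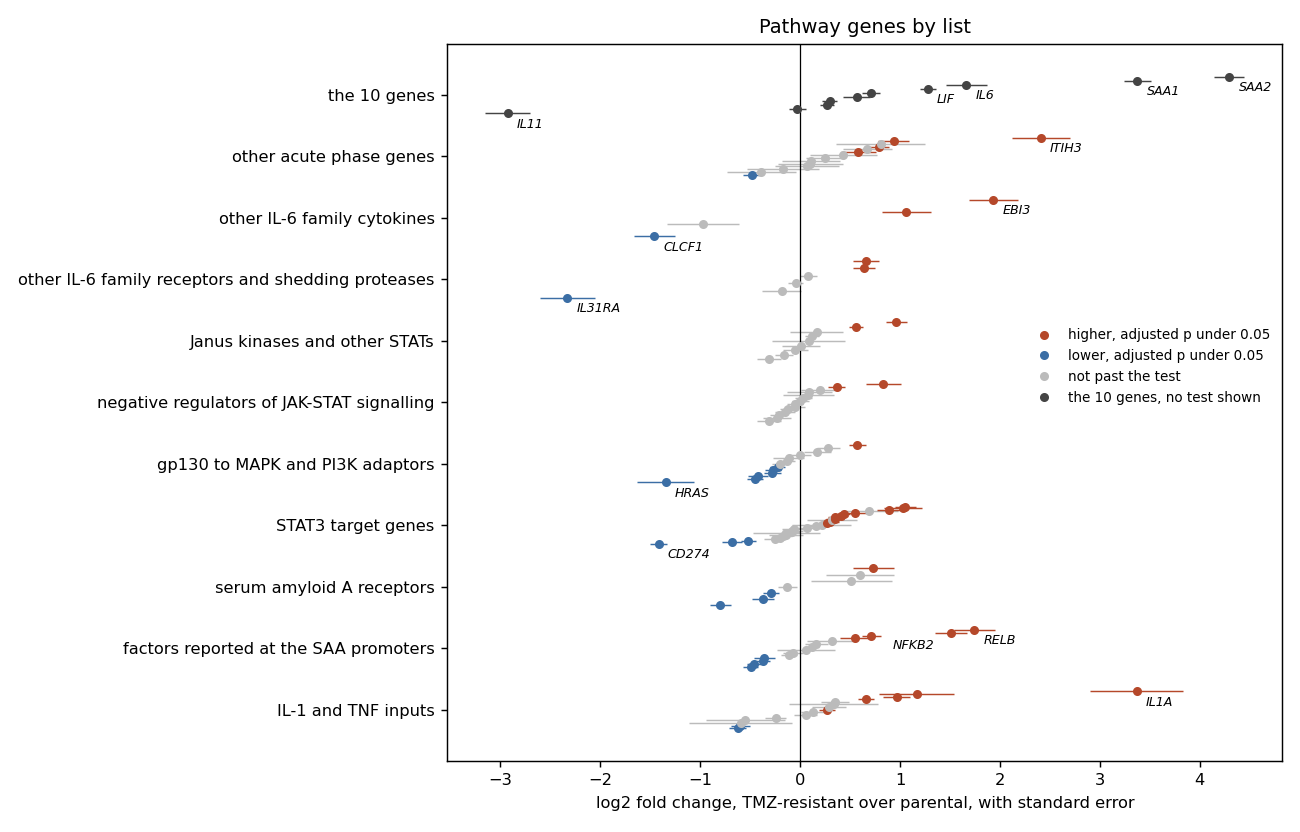
Log2 fold change (TMZ-resistant over parental) with its standard error for the 10 genes and for each tested gene of the other pathway lists, coloured by the limma call. Lists hold rising and falling genes side by side, except the kinase and STAT list and the negative regulators, where 2 genes each rose and none fell.

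The inputs that induce SAA genes were split. Of 15 tested IL-1 and TNF pathway genes 5 rose and 2 fell, with a median log2 fold change of 0.27. IL1A had 33.1 and 22.9 in resistant libraries, against 1.63 and 1.91 in parental libraries. That is 44 and 27 fragments in resistant and 2 and 2 in parental libraries (limma, adjusted p = 0.00102). IL1A met the filter of 10 through its resistant libraries alone, so nothing further is read from its call. The ratio of its pooled fragments was 16.1 with an exact binomial 95% interval of 6.03 to 60.8, counting error only. IL1B rose 2.24-fold at low values (62.5 and 35.7 in resistant libraries, against 16.3 and 25.8 in parental libraries; adjusted p = 0.0404), a call lost without resistant replicate 1 (adjusted p = 0.293) or parental replicate 1 (adjusted p = 0.132). The receptor genes IL1R1 and IL1RAP rose 1.96-fold and 1.58-fold, while IRAK1 and TRAF2, signal transducers downstream, fell by 0.63 and 0.60 on the log2 scale. TNF was listed at 0 in every library. It lies between 29 and 34 Mb of chromosome 6, where 64.4% of 180 coding genes were listed at 0 throughout, against 13.4% of other coding genes, so this 0 is not read as absence.

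Of 14 tested factors reported at the SAA promoters 4 rose and 4 fell, with a median of 0.09. RELB rose 3.35-fold (160 and 155 in resistant libraries, against 42.3 and 50.7 in parental libraries; adjusted p = 5.17e-04) and NFKB2 2.85-fold (2487 and 2691 in resistant libraries, against 763 and 1082 in parental libraries; adjusted p = 5.98e-04). They encode the pair of noncanonical NF-kB signalling. NFKB2 lies on chromosome 10, where the 88 tested coding genes within 5 Mb had a median log2 fold change of 0.55 and 60.2% were called higher; the part of this in the rise of NFKB2 was not tested. RELA and NFKB1, the canonical pair, had log2 fold changes of −0.07 (95% interval −0.30 to 0.15; adjusted p = 0.607) and −0.11 (−0.29 to 0.07; adjusted p = 0.295). CEBPD rose 1.47-fold (adjusted p = 0.0249), a call lost without resistant replicate 1 (adjusted p = 0.190) or parental replicate 1 (adjusted p = 0.0779). CEBPB had 467 and 274 in resistant and 259 and 317 in parental libraries, with overlap, and did not pass (adjusted p = 0.370; 0.0294 without resistant replicate 2).

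Other acute phase genes did not follow SAA1 and SAA2 in size. Of 25 listed, 14 were tested, 4 rose and 1 fell, with a median log2 fold change of 0.34. ITIH3, an inter-alpha-trypsin inhibitor heavy chain, rose 5.31-fold (73.0 and 71.3 in resistant libraries, against 11.4 and 14.3 in parental libraries; adjusted p = 5.75e-04), A2M 1.91-fold, complement C3 1.73-fold (adjusted p = 7.32e-04) and SERPINA1 1.496-fold, whereas the pentraxin PTX3 fell by 0.49 on the log2 scale. The SERPINA1 call (adjusted p = 0.0309) was lost without either resistant library (adjusted p = 0.158 and 0.129) or parental replicate 2 (0.106). CRP, HP and HAMP, classic liver acute phase genes, had values below 1 in all libraries. In 9 of the 14 the libraries numbered 1 were above those numbered 2 in both groups, against 22.4% of all genes. Leukocyte markers did the same in 7 of 8 cases and fibroblast markers in 6 of 8, with COL1A1 at 4109 and 3317 in resistant and 4170 and 3051 in parental libraries. The summed fibroblast markers ran from 12690 to 14981 in resistant and from 13067 to 16183 in parental libraries, and the summed leukocyte markers from 1581 to 1685 in resistant and from 1054 to 1361 in parental libraries; AIF1, on the same stretch of chromosome 6 as TNF, was listed at 0. Marker RNA alone does not show that leukocytes or fibroblasts were present in these cultures. The part of these markers in the acute phase values was not tested. SAA1 and SAA2 had the higher deposited value in the libraries numbered 2, in both groups, as did 6449 of all 16132 genes tested. With libraries scaled to a total of 1000000, SAA2 per kb was instead higher in resistant replicate 1 (19.8) than in resistant replicate 2 (19.3).

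Among the 7 tested receptors reported for serum amyloid A 1 rose and 3 fell, with a median of −0.13. TLR4 fell by 0.80 on the log2 scale to 563 and 577 in resistant libraries, against 939 and 1046 in parental libraries (adjusted p = 6.91e-04). SCARB1 fell by 0.29 (adjusted p = 0.0205) and OLR1 rose 1.66-fold (adjusted p = 0.0243), and both calls were lost without resistant replicate 1 (adjusted p = 0.120 and 0.192), resistant replicate 2 (0.0811 and 0.0515) or parental replicate 2 (0.0883 and 0.0796). SCARB1 was also lost when scaled to library totals (adjusted p = 0.0525). TLR4 lies on chromosome 9, where the 44 tested coding genes within 5 Mb had a median log2 fold change of 0.32, opposite in sign to that of TLR4. FPR2, the formyl peptide receptor through which serum amyloid A attracts leukocytes, had values of at most 2.44.

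The nearest tested coding gene on each side was compared for all of the 10. The gaps ran from 1.4 kb to 820.6 kb, the widest to MAP3K1 beyond IL6ST. Of 16 distinct neighbours that are not among the 10, 4 rose, 6 fell and 6 did not pass, with a median log2 fold change of −0.03. This is 62.5% called, against 37.1% of all genes tested (16.2% higher and 20.9% lower). GDNF, 635.3 kb beyond LIFR, fell by 1.98 on the log2 scale (limma, adjusted p = 3.44e-04). Its means were 54.0 ± 5.57 in resistant cells and 218 ± 43.5 in parental cells (SD, n = 2 each). Next to IL11, RPL28 rose 1.39-fold, against the direction of IL11, and next to SOCS3, BIRC5 fell, against that of SOCS3. CAVIN1, beside STAT3, fell by 0.60 and MAP3K1, beyond IL6ST, by 0.33 (adjusted p = 0.00248 and 0.0177), the last lost without resistant replicate 1 (adjusted p = 0.115) or parental replicate 2 (0.0830). TOMM7 beside IL6 and MTMR3 beside LIF rose 1.37-fold and 1.40-fold, less than the cytokine genes themselves. The TOMM7 call was lost without resistant replicate 2 (adjusted p = 0.0728).

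**Figure D4:**
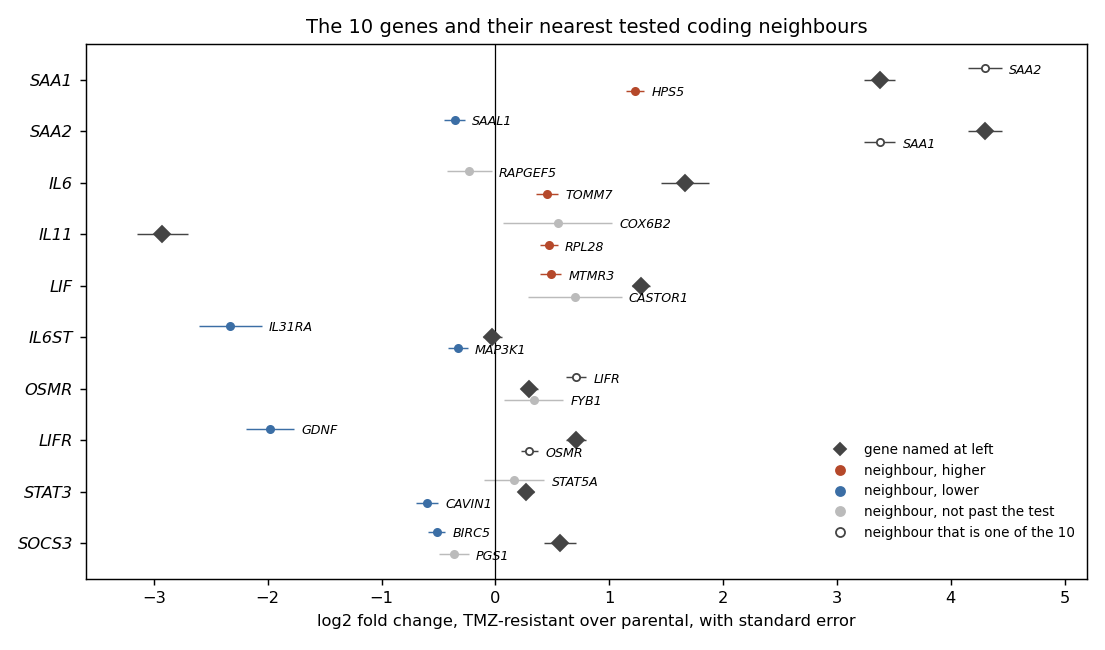
Log2 fold change (TMZ-resistant over parental) with its standard error for each of the 10 genes (diamonds) and for the nearest tested coding gene on either side (circles, coloured by the limma call, open where the neighbour is itself 1 of the 10). HPS5 at 1.23 moves with SAA1. IL31RA at −2.33 lies 12.2 kb from IL6ST and GDNF at −1.98 lies 635.3 kb from LIFR, and IL6ST and LIFR do not fall with them.

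Profiles most like those of SAA1, SAA2 and IL11 were found by the root mean square difference of centred log2 values over the 4 libraries. For SAA1 they were PLCE1-AS1 (0.205), GLS2 (0.214) and IL1A (0.225), with log2 fold changes of 3.25, 2.96 and 3.37. For SAA2 they were PHF24 (0.185), the decoy receptor gene TNFRSF6B (0.186) and USP26 (0.220), with log2 fold changes of 3.94, 3.96 and 4.57. For IL11 they were FAM201A (0.081), LINC01537 (0.089) and SYT16 (0.144), with log2 fold changes of −3.08, −3.05 and −2.68. With 4 libraries in 2 groups this measure mostly matches the size of the group difference.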

How the data were processed

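RNA sequencing of 4 libraries of the GBM8401 cell line was analysed from 1 table of 58219 genes. The deposited values are a signal, which by their steps are numbers of fragments on a gene, rescaled with 1 factor per library and without regard to gene length. How the authors set the factors is not stated. Cufflinks 2.2.1, Cuffdiff, HISAT2 2.1.0, Trimmomatic 0.36, bcl2fastq and SAMtools 1.2 are named in the submitters' processing notes, as is the build GRCh38.p10. Their settings, the annotation and the use of strand were not given in the sources used here. Per the labels, the library kit keeps strand. The most frequent value above 0 of a library (0.753 to 0.956) was taken as 1 fragment. By that measure 93.8% to 94.3% of values above 0 were whole to within 0.05, too few for a count-based test. Precision is set by depth and by n = 2.

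Genes with a value of at least 10 in at least 2 libraries were log2-transformed after adding 1 and fitted with limma 3.58.1 under R 4.3.3, using trend and robust moderation, on the group alone. Tests were two-sided and adjusted by Benjamini-Hochberg over 16132 genes, with 0.05 as the threshold. Fold changes on this scale understate low genes. An exact permutation test of 2 against 2 cannot go below p = 0.333 and was not used. Same-numbered libraries deviated together (r = 0.265 across genes), but the labels name no shared day or culture, so no block was used. The replicates of a group differed by more than sampling noise (chi-square per degree of freedom 7.83 in resistant and 11.6 in parental libraries) and each was counted as a sample.

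The 10 genes, the lists and the tests were chosen with earlier results of these data known. Named are the 10 genes, list members called with an absolute log2 fold change of at least 1 (or else the up to 3 called with the smallest adjusted p), genes that define a step, called neighbours, and the 3 genes nearest in profile to SAA1, SAA2 and IL11, skipping clone-based names; the other genes named were chosen after their values were seen. Some results under this rule are not reported here. GENCODE 29 held 57881 of the gene IDs.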

Additional observations from a re-analysis of the deposited data

How the results depend on the processing

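The 10 genes kept their direction under all 13 alternatives, except IL6ST, whose log2 fold change lay between −0.12 and 0.07. Changes of filter, the replicate block and limma without trend and robust moderation cannot alter a log2 fold change in this design. Those alternatives therefore say nothing about direction. SAA1 lay between 3.20 and 3.56, SAA2 between 4.16 and 4.43, IL6 between 1.58 and 1.76, and IL11 between −3.03 and −2.74. Over all genes, 5991 were called as reported, 3686 by limma without trend and robust moderation, and between 3528 and 5435 when 1 library was left out (3528 without resistant replicate 1 and 3786 without resistant replicate 2), where the lone library is assumed to vary like the other group. Of the neighbours, 10 were called as reported, 6 without trend and robust moderation, and between 8 and 11 with 1 library left out. For the pathway genes these numbers were 52, 35, and 37 to 49. The median log2 fold change of all genes was −0.02 as deposited and 0.08 when scaled to library totals. With the replicate number as a block, 8624 genes, 67 pathway genes and 11 neighbours were called, among them JAK2, PTPN11 and MCL1 (adjusted p = 0.00314, 0.00343 and 0.00432), which did not pass as reported. The correlation of same-numbered libraries was 0.265. The planned count-based alternative was not run, because too few values were whole fragments. IL1A rests on 2 fragments in each parental library, which limits the precision of its fold. The cause of these differences was not tested.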
